A study of Mus musculus with 18 samples.

Results

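EBs formed without LIF were compared with EBs formed with LIF over the first 2 days of culture, on 8 of the 18 arrays of the series. EBs are spheres of ES cells that begin to differentiate once they are cultured in suspension. The clones described are those that carried 1 gene symbol and had a value on all 8 arrays, which left 5758 of the 15360 clones printed, for 4679 genes, of which 843 had more than 1 clone. All EBs came from IMT11, a mouse ES cell line, and were started as hanging drops of 1000 cells in ES medium with 10% FBS and 10% NBS. The groups were D1-LIF and D2-LIF (EBs of Days 1 and 2 in medium lacking LIF) and D1+LIF and D2+LIF (EBs of the same days in medium that kept LIF), with 2 arrays each, 1 with the sample in Cy3 and 1 with the sample in Cy5. Each array set a sample against 1 pooled control, which the labels describe as RNA of Day 1 to Day 4 EBs. The study's text instead describes it as an equal mix of all its samples, with undifferentiated ES cells included. The drops hung overnight and were flooded with a larger volume of medium on the next day, so Day 2 EBs had been floated for longer than Day 1 EBs. The day and this culture step cannot be told apart. All cells came from 1 ES cell line, and the labels state 2 biological sets without saying which array belongs to which, so the p-values measure the spread between these arrays, which may be partly technical.

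LIF binds the LIF receptor and its partner gp130, and the paired receptor activates JAK kinases, which phosphorylate STAT3. STAT3 then switches on genes that hold mouse ES cells in the undifferentiated state, while the MAP kinase and PI3 kinase branches of the same receptor act on growth and differentiation. When LIF is removed, mouse ES cells leave this state over several days.

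A value is the log2 ratio of sample to pool after each array had been centred on its median within each slide, and a difference is the value of an array of EBs without LIF minus that of the array of EBs with LIF of the same day and sample dye, which gives 4 matched pairs with no array in common. Whether the deposited ratio is sample over pool is not stated, so this direction is likely and not settled. The arrays of 1 condition did not repeat each other well across dyes. The Cy3 and Cy5 arrays correlated across 8741 clones at r = 0.37 for D1-LIF, -0.19 for D2-LIF, -0.30 for D1+LIF and -0.35 for D2+LIF. The spread of values was also far wider with the sample in Cy5 (SD 0.94 to 1.09) than in Cy3 (SD 0.20 to 0.44), so the Cy5 arrays weigh most in every mean. On slide 1 no value was given for 15249 spots in D2-LIF with Cy5, nor for 7973 spots in D1+LIF with Cy5, so slide 1 gave only 758 of the 5758 clones and its centring rested on few spots. Values of slide 2 alone are therefore also given for some of the lists and single genes. A ratio to a pool gives no level, so the identity of the EB cells could not be checked from their markers, and fewer cells of a type cannot be told apart from less RNA per cell.

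The difference that most genes of 1 family shared was not an effect of LIF over both days, but one that ran in opposite directions on the 2 days. Cytosolic ribosomal protein genes, which encode the protein subunits of the ribosome and are transcribed at a high rate in growing cells, lay below the EBs with LIF at Day 1 and above them at Day 2. Of the 73 genes measured of 74 listed, 58 were lower in both Day 1 pairs, against 30.8% of all 4679 genes, and 68 were higher in both Day 2 pairs, against 38.6% of all genes. Both held for 56 of the 73 genes (76.7%), against 14.6% of all genes. The reverse order, higher in both Day 1 pairs and lower in both Day 2 pairs, held for no gene of the family, since none was lower in both Day 2 pairs. The median difference of the family was -0.35 with Cy3 and -0.27 with Cy5 at Day 1, and 0.52 with Cy3 and 1.08 with Cy5 at Day 2, where the medians of all genes were -0.03, 0.00, 0.02 and 0.23 in the same order. No gene of the family passed the test of the difference between the days (limma, Benjamini-Hochberg), although 49 of the 73 had an unadjusted p under 0.05, against 6.69% of all genes, and the smallest adjusted p among them was 0.49.

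The 2 genes of the family whose clones lay on slide 2 alone and had the smallest p of this difference are shown in full, together with Rps2, which belongs to the list of genes already published for these EBs. Rpl38, a protein of the large subunit, had values of -0.24 (Cy3) and -3.13 (Cy5) in D1-LIF EBs, against 0.31 and -2.59 in D1+LIF EBs. At Day 2 it had 0.78 (Cy3) and -2.23 (Cy5) in D2-LIF EBs, against 0.08 and -3.28 in D2+LIF EBs. With either dye it was therefore the lower value without LIF at Day 1 and the higher one at Day 2, and the change in its difference between the days was 1.42 (adjusted p = 0.55, limma). Rps27, a protein of the small subunit, had -0.40 (Cy3) and -2.99 (Cy5) in D1-LIF EBs, against 0.04 and -2.66 in D1+LIF EBs. At Day 2 it had 0.65 (Cy3) and -1.98 (Cy5) in D2-LIF EBs, against -0.05 and -3.03 in D2+LIF EBs. The order of its 4 pairs was the same as for Rpl38, with a change between the days of 1.26 (adjusted p = 0.55, limma). Rps2, of the small subunit, showed pair differences of -0.11 and -0.38 at Day 1 and 0.41 and 0.92 at Day 2 (Cy3, then Cy5). These genes were chosen after their values were seen.

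**Figure D1:**
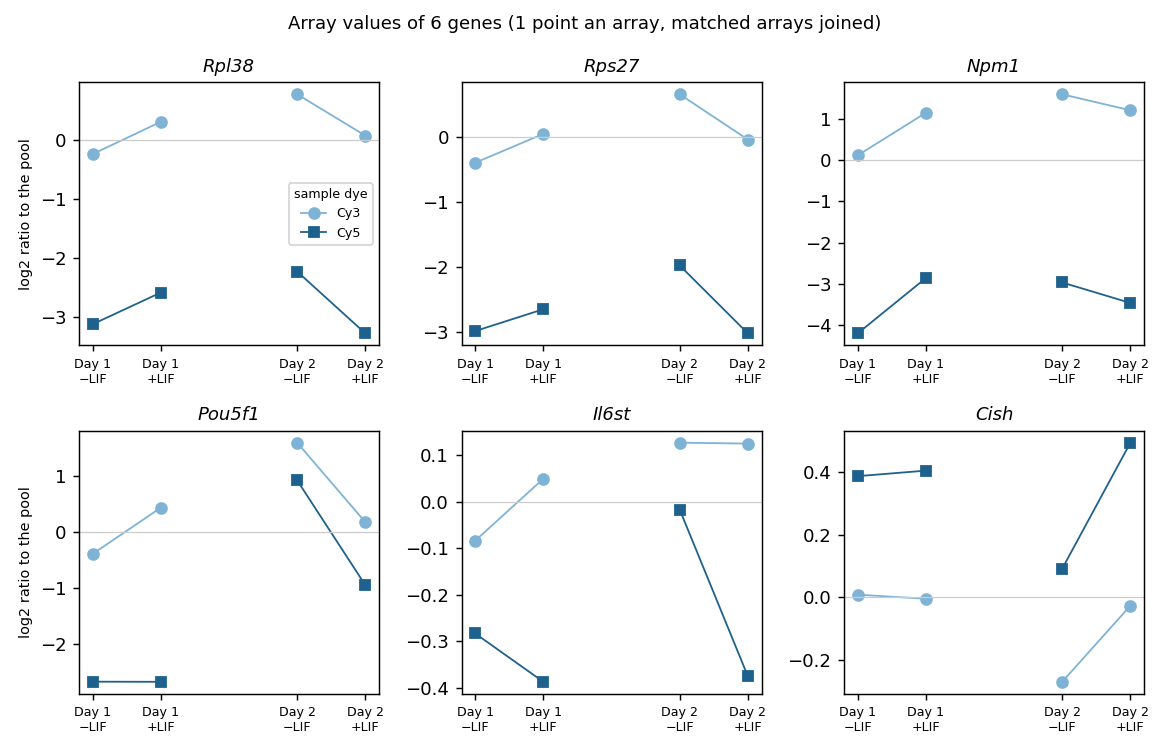
Log2 ratio to the pool (vertical axis) of 6 genes on the 8 arrays, with EBs without LIF left of EBs with LIF for each day, circles for the sample in Cy3, squares for Cy5 and lines joining matched arrays. Rpl38, Rps27 and Npm1 slope upwards to +LIF at Day 1 and downwards at Day 2 with both dyes, while Il6st and Cish stay within 0.5 of the pool on all arrays.

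Ribosomal protein genes are known for a pyrimidine run with a leading C at the start site, the TOP motif, by which translation of their mRNAs is regulated. The stretches around the RefSeq start sites (GRCm38.p6) of the genes shown in full are printed for that reason. The words CTTTT or CTTTC or CTTCC or CTTCT were searched on the coding strand alone, within 10 bases of the start, and a start site with several words counted once. A word found in this way need not begin at the start, as the motif does. They were found at 29 of 70 start sites (41.4%) of the 59 ribosomal protein genes that matched by symbol, against 4352 of 32851 start sites of all genes (13.2%). Each line gives 15 bases on either side of the start, with the word in capitals.
Rpl38, chr11:114668565-114668594, plus strand: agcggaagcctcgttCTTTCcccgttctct
Rps27, chr3:90213634-90213663, minus strand: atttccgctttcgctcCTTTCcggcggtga
Rps2, chr17:24720048-24720077, plus strand: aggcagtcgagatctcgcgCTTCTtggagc
The word of Rpl38 begins at the annotated start, and those of Rps27 and Rps2 begin after it. A match describes the sequence and is not a site shown to act in these cells.

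The pattern was spread over the printed arrays. The 155 ribosomal protein clones with a value lay in 64 of the 96 printed blocks, and on slide 2 alone 94 of 126 clones (74.6%) were lower in both Day 1 pairs and higher in both Day 2 pairs, against 13.2% of all clones of that slide. At the gene level, slide 2 gave 53 of 66 genes, against 14.5% of all genes. Centring each printed block on its own median gave 55 of 73, against 17.4% of all genes. The count moved further with the scaling of the arrays, and the cause was not tested. When the arrays were scaled to an equal spread, the median of the family in the Day 2 Cy5 pair turned to -0.58 while that in the Day 2 Cy3 pair stayed at 0.52, and 15 of 73 genes (20.5%) showed the pattern, against 10% of all genes, 10 of them among the 56. With quantile normalization the medians kept their signs (-0.79 and -0.19 at Day 1, 0.76 and 0.22 at Day 2, Cy3 then Cy5). There 34 of 73 genes (46.6%) showed the pattern, all among the 56, against 5.79% of all genes. Without centring 33 did, 32 of them among the 56, against 4.42% of all genes. When the Cy3 signs were reversed no gene of the family showed the pattern, against 3.03% of all genes, since its Cy3 and Cy5 pairs then ran against each other. Against the pool the family stood at -2.85 (D1-LIF), -1.63 (D2-LIF), -2.38 (D1+LIF) and -2.65 (D2+LIF) with Cy5 and at -0.33, 0.54, 0.03 and -0.06 with Cy3 in the same order of groups, so the dyes did not agree on its level. cDNA clones can also bind transcripts of processed pseudogenes and close copies, which these values do not separate.

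**Figure D2:**
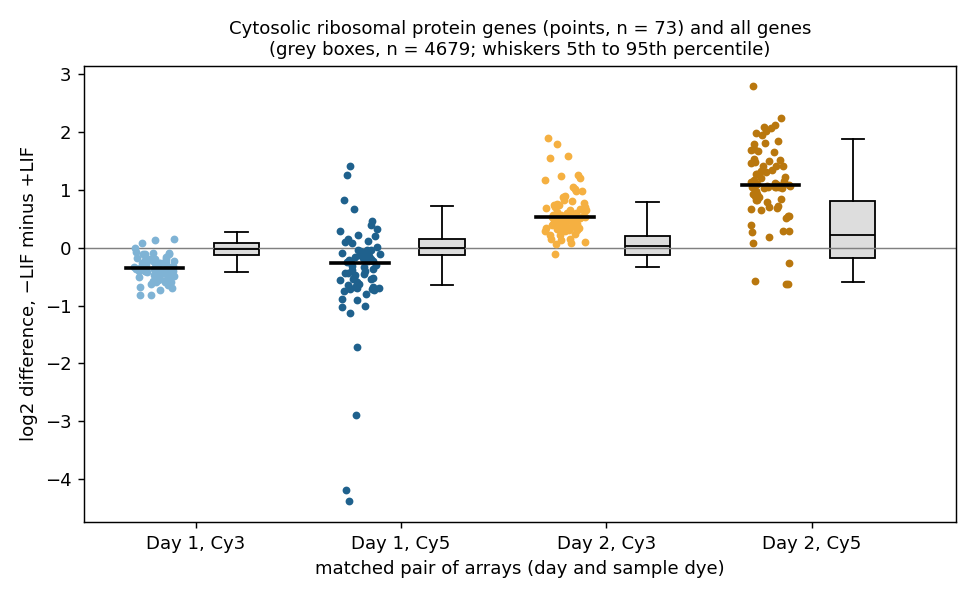
Log2 difference, -LIF minus +LIF (vertical axis), of 73 cytosolic ribosomal protein genes (points, black line at their median) and of all 4679 genes (grey boxes from the lower to the upper quartile, whiskers at the 5th and 95th percentile) in each matched pair of arrays. The medians of the family are -0.35 and -0.27 at Day 1 and 0.52 and 1.08 at Day 2.

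Other groups of genes for protein synthesis and folding had values of the same order. Translation factors, which load, move and release ribosomes, were lower in both Day 1 pairs for 18 of 29 genes and higher in both Day 2 pairs for 21 of 29, with both in 12 (41.4%, against 14.6% of all genes). Both held for 5 of 29 (17.2%) without centring, with equal spread or with quantile normalization, against 4.42%, 10% and 5.79% of all genes. Of the 5 with equal spread, 1 was among the 12. With the Cy3 signs reversed both held for 0, against 3.03% of all genes. On slide 2 alone both held for 12 of 26 (46.2%), against 14.5% of all genes. Their medians were -0.26 and -0.15 at Day 1 and 0.39 and 0.72 at Day 2 (Cy3, then Cy5), although without centring the Day 2 Cy5 median was -0.17 and with equal spread it was 0.00. Eef1g, a subunit of the elongation factor that recharges Eef1a1, had pair differences of -0.67 and -1.13 at Day 1 and 0.71 and 1.27 at Day 2. Its Day 1 Cy5 value rested on 1 clone of slide 1 (-4.93), and the 5 clones of slide 2 averaged -0.66 and -0.37 at Day 1 and 0.48 and 1.42 at Day 2. Eef1a1, which brings aminoacyl-tRNA to the ribosome, had -0.76 and -0.56 at Day 1 and 0.76 and 0.47 at Day 2 as the mean of 16 clones, and -0.88 and -0.95 at Day 1 and 0.54 and 0.76 at Day 2 over the 11 of slide 2. Both were therefore on opposite sides of the EBs with LIF on the 2 days.

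Chaperones, which fold new and damaged proteins, showed it less evenly, with 13 of 30 genes lower in both Day 1 pairs, 22 higher in both Day 2 pairs and 10 (33.3%) with both, against 30.8%, 38.6% and 14.6% of all genes. With the Cy3 signs reversed 0 of 30 had both, without centring 5, and with equal spread 10, of which 4 were among the 10 reported. The shares of all genes in these settings were 3.03%, 4.42% and 10%. Npm1, a nucleolar chaperone of ribosome assembly, had 0.12 (Cy3) and -4.20 (Cy5) in D1-LIF EBs, against 1.15 and -2.86 in D1+LIF EBs. At Day 2 it had 1.60 (Cy3) and -2.96 (Cy5) in D2-LIF EBs, against 1.21 and -3.46 in D2+LIF EBs. Pdia3, a disulphide isomerase of the endoplasmic reticulum, had pair differences of -0.51 and -0.74 at Day 1 and 0.69 and 0.74 at Day 2, and Hsp90aa1, a stress-inducible cytosolic chaperone, had -0.52 and -0.35 at Day 1 and 0.98 and 1.62 at Day 2. The Day 2 values of Hsp90aa1 rested on slide 1, where 1 clone gave 5.68 with Cy5, and its 2 clones of slide 2 averaged -0.78 and -0.96 at Day 1 and 0.22 and 0.64 at Day 2, 1 of them with -0.05 in the Day 2 Cy3 pair. As gene means the 3 genes were below the EBs with LIF in both Day 1 pairs and above them in both Day 2 pairs, and none passed the test of the difference between the days (adjusted p = 0.62 to 0.66, limma). The chaperone median was 0.03 in the Day 1 Cy5 pair, and with equal spread it was -0.01 in the Day 2 Cy3 pair. On slide 2 alone 8 of 20 chaperone genes (40%) had both, against 14.5% of all genes. Their Day 2 Cy3 median was 0.20 there, against 0.51 with both slides.

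With each array centred within each slide, groups of energy metabolism and protein turnover differed mainly at Day 2. Oxidative phosphorylation genes had medians of -0.15 and -0.05 at Day 1 and 0.16 and 0.88 at Day 2, with 18 of 50 genes (36%, against 14.6% of all genes) lower in both Day 1 pairs and higher in both Day 2 pairs. That count was 5 (10%) without centring, against 4.42% of all genes, and 0 with the Cy3 signs reversed, against 3.03%. Cox4i1, a subunit of cytochrome c oxidase, had pair differences of -0.36 and -0.05 at Day 1 and 0.63 and 0.94 at Day 2, and its 3 clones of slide 2 averaged -0.36 and -0.32 at Day 1 and 0.33 and 1.12 at Day 2. Proteasome genes had medians of -0.13 and 0.02 at Day 1 and 0.44 and 1.16 at Day 2, and glycolysis and pentose phosphate genes had -0.12 and 0.23 at Day 1 and 0.36 and 1.02 at Day 2. The cell cycle genes had -0.15 and 0.04 at Day 1 and 0.15 and 0.86 at Day 2. In all 4 groups the Day 2 Cy5 pair gave the largest median, and this pair includes the array with the most missing spots. On slide 2 alone the Day 2 medians (Cy3, then Cy5) were 0.08 and 0.80 for oxidative phosphorylation and 0.07 and 0.78 for the proteasome. They were 0.15 and 1.02 for glycolysis and pentose phosphate and 0.15 and 0.80 for the cell cycle there. When the arrays were scaled to an equal spread the Day 2 Cy5 medians were 0.09 for oxidative phosphorylation and 0.24 for the proteasome. They were then 0.27 for glycolysis and pentose phosphate and 0.13 for the cell cycle, beside 0.04 for all genes. Without centring they were -0.01, 0.01, 0.23 and 0.02 in the same order, beside -0.61 for all genes. By contrast fibroblast genes had a Day 2 Cy5 median of -0.23, erythroid genes one of -0.38 and solute carriers one of 0.22, the last beside 0.23 for all genes.

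**Figure D3:**
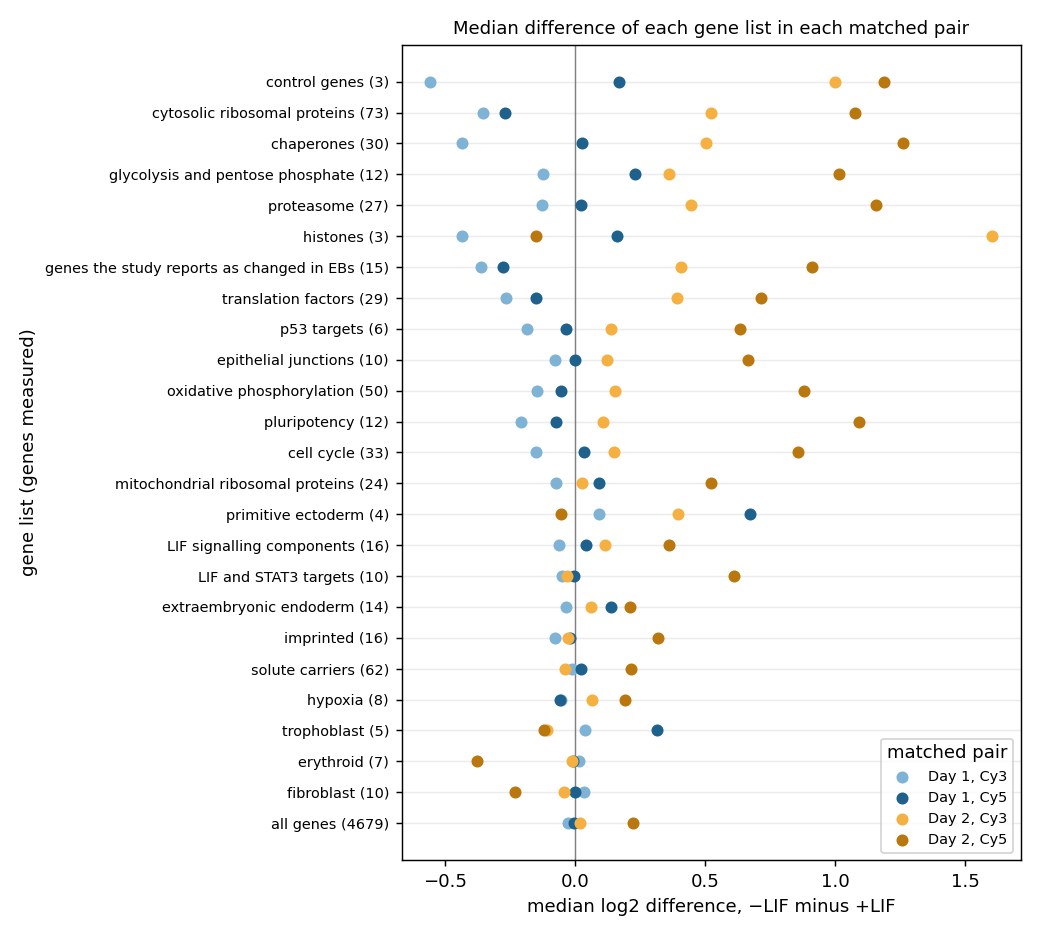
Median log2 difference, -LIF minus +LIF (horizontal axis), of each gene list with at least 3 genes measured (number in brackets), in the 4 matched pairs. The cytosolic ribosomal proteins lie left of 0 at Day 1 and right of 0 at Day 2 with both dyes, and the Day 2 Cy5 pair is the farthest to the right for most lists, with a median of 0.23 for all genes.

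Outside the lists, Ddb1, which encodes a subunit of a ubiquitin ligase that recognises damaged DNA, had the smallest adjusted p of the difference between the days (0.22, limma). Its values were -0.32 (Cy3) and -2.04 (Cy5) in D1-LIF EBs, against 0.84 and -0.63 in D1+LIF EBs, and 1.93 and 0.52 in D2-LIF EBs, against 0.59 and -1.13 in D2+LIF EBs. It rests on 1 clone of slide 1, and it was chosen after its values were seen. The 20 clones of its printed block had median differences of -0.27 (Cy3) and -2.25 (Cy5) at Day 1 and 1.39 and 1.40 at Day 2. The difference of Ddb1 thus ran in the same directions as that of its block, and the part due to position was not tested. Over all genes, no gene passed for this difference (0%). Of the 313 with an unadjusted p under 0.05, 299 were relatively higher at Day 2 (6.39% of all genes) and 14 relatively lower (0.299%). Such counts changed with the setting: of the 8741 clones, 616 had an unadjusted p under 0.05, against 27 with the Cy3 signs reversed, 30 without the dye term and 207 with quantile normalization. The Day 1 and Day 2 differences correlated across clones at r = -0.33 with Cy3 and -0.03 with Cy5, whereas the dyes correlated within a day at r = 0.19 (Day 1) and 0.32 (Day 2). On slide 2 alone these were -0.10, 0.02, 0.36 and 0.29. With quantile normalization the dyes correlated at 0.15 at Day 1 and at 0.04 at Day 2.

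The effect of LIF over both days was tested on all 8741 clones with a value on all 8 arrays, with day and dye as blocks, and no clone passed an adjusted p of 0.05 (limma, Benjamini-Hochberg, 0% called, smallest adjusted p 0.83). An unadjusted p under 0.05 was reached by 264 clones (3.02%), 151 higher without LIF and 113 lower. At the gene level no gene passed (0% of 4679, smallest adjusted p 0.82), and 111 genes (2.37%) had an unadjusted p under 0.05, 81 of them higher (1.73%) and 30 lower (0.641%). Neither Day 1 nor Day 2 on its own gave a call. At Day 1, 87 genes (1.86%) had an unadjusted p under 0.05, 11 of them higher without LIF (0.235%) and 76 lower (1.62%). At Day 2 there were 494 such genes (10.6%), 414 higher (8.85%) and 80 lower (1.71%). The precision was limited by the number of arrays: the 95% interval of a gene's mean difference was ± 0.34 at the median, and an exact permutation of a single value within day and dye cannot give a two-sided p below 0.125. Differences of 90% of genes lay between -0.20 and 0.64, and no gene changed at least 2-fold in the same direction in all 4 pairs.

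Of the LIF signalling components, 16 of 40 listed genes were measured, and none passed the test. Il6st, which encodes gp130, had -0.08 (Cy3) and -0.28 (Cy5) in D1-LIF EBs, 0.13 and -0.02 in D2-LIF EBs, 0.05 and -0.39 in D1+LIF EBs, and 0.12 (Cy3) and -0.37 (Cy5) in D2+LIF EBs. Its groups overlapped, and its mean difference was 0.08 ± 0.25 (95% interval), which on the scale of these ratios does not reach 2-fold in either direction. The Cy3 arrays spread far less than the Cy5 arrays, and how a 2-fold change in RNA would read on them was not tested. Jak1, the kinase bound to gp130, differed by 0.23 ± 0.35 and Stat3, the transcription factor downstream, by -0.003 ± 0.29. As a gene mean Stat3 was higher without LIF in both Day 1 pairs (0.09 and 0.30) and lower in both Day 2 pairs (-0.11 and -0.30). This order, the reverse of the ribosomal proteins, held for 5.73% of all genes. Its 2 clones differed at Day 2, 1 with -0.21 (Cy3) and 0.03 (Cy5), and 1 with -0.008 and -0.63. Of the branches beside STAT3, Map2k1, a kinase of the MAP kinase cascade, differed most (0.57 ± 0.80), and it is printed in a block whose clones were mostly higher without LIF. The adaptors Grb2 (0.15 ± 0.30) and Shc1 (0.13 ± 0.48), the phosphatase Ptpn11 (0.04 ± 0.48), the GTPase Nras (0.46 ± 0.86), Map2k2 (0.07 ± 0.39), the lipid kinase Pik3ca (0.17 ± 0.31), the kinases Akt2 (-0.10 ± 0.23), Gsk3b (0.11 ± 0.30) and Mtor (0.09 ± 0.28), the STAT inhibitor Pias1 (0.32 ± 0.81) and the transcription factor Foxo1 (0.01 ± 0.26) also had intervals that included 0. On slide 2 alone Nras differed by 0.14 and Pias1 by -0.03.

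Cish, a feedback inhibitor of the SOCS family whose transcription STAT proteins switch on, carried the STAT motif TTCNNNGAA, which reads the same on both strands, at its start site, and the stretch is printed for that reason. The motif was present in 3 of 21 promoters of the measured components (14.3%, those of Cish, Mtor and Akt2), in 0 of 7 of the LIF and STAT3 targets, and in 2726 of all 32851 promoters of 250 bases before to 50 after the start (8.3%). The stretch printed holds 2 matches, which do not overlap.
Cish, chr9:107296643-107296683, plus strand, matches in capitals: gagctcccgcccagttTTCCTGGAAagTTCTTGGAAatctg
Cish had 0.01 (Cy3) and 0.39 (Cy5) in D1-LIF EBs, against -0.01 and 0.40 in D1+LIF EBs. At Day 2 it had -0.27 (Cy3) and 0.09 (Cy5) in D2-LIF EBs, against -0.03 and 0.49 in D2+LIF EBs. It was near the EBs with LIF at Day 1 and lower in both pairs at Day 2, with a mean difference of -0.16 ± 0.25 (adjusted p = 0.82, limma). It is a single clone of a block whose clones had a median difference of -0.14.

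Of the LIF and STAT3 targets, 10 of 34 listed genes were measured. Their median was -0.05 and 0.00 at Day 1 and -0.03 and 0.61 at Day 2, and none passed the test or moved the same way in all 4 pairs. Klf5, a pluripotency factor, had pair differences of -0.28 and 0.09 at Day 1 and -0.41 and 1.01 at Day 2. Myc, a growth regulator, had -0.40 and -0.10 at Day 1 and -0.26 and 2.61 at Day 2, so that 3 of 4 pairs were lower and its mean difference of 0.46 ± 1.37 rested on the Day 2 Cy5 pair. Mcl1, a survival factor, differed by 0.43 ± 0.70, Tfcp2l1, a factor of the naive state, by -0.13 ± 0.50, and the immediate early genes Fos and Egr1 by -0.02 ± 0.23 and 0.07 ± 0.47. Spry4, a MAP kinase inhibitor, Ccnd3, a cyclin, and Vim, an intermediate filament, differed by 0.02 ± 0.20, -0.04 ± 0.49 and -0.02 ± 0.37. Jun, a subunit of AP-1, had a value of 8.22 on the D2-LIF array in Cy5 and lay between -0.09 and 0.17 on the other 7 arrays. That spot is on slide 1 of the array with most missing values, and its mean difference of 2.06 ± 4.27 rests on it.

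**Figure D4:**
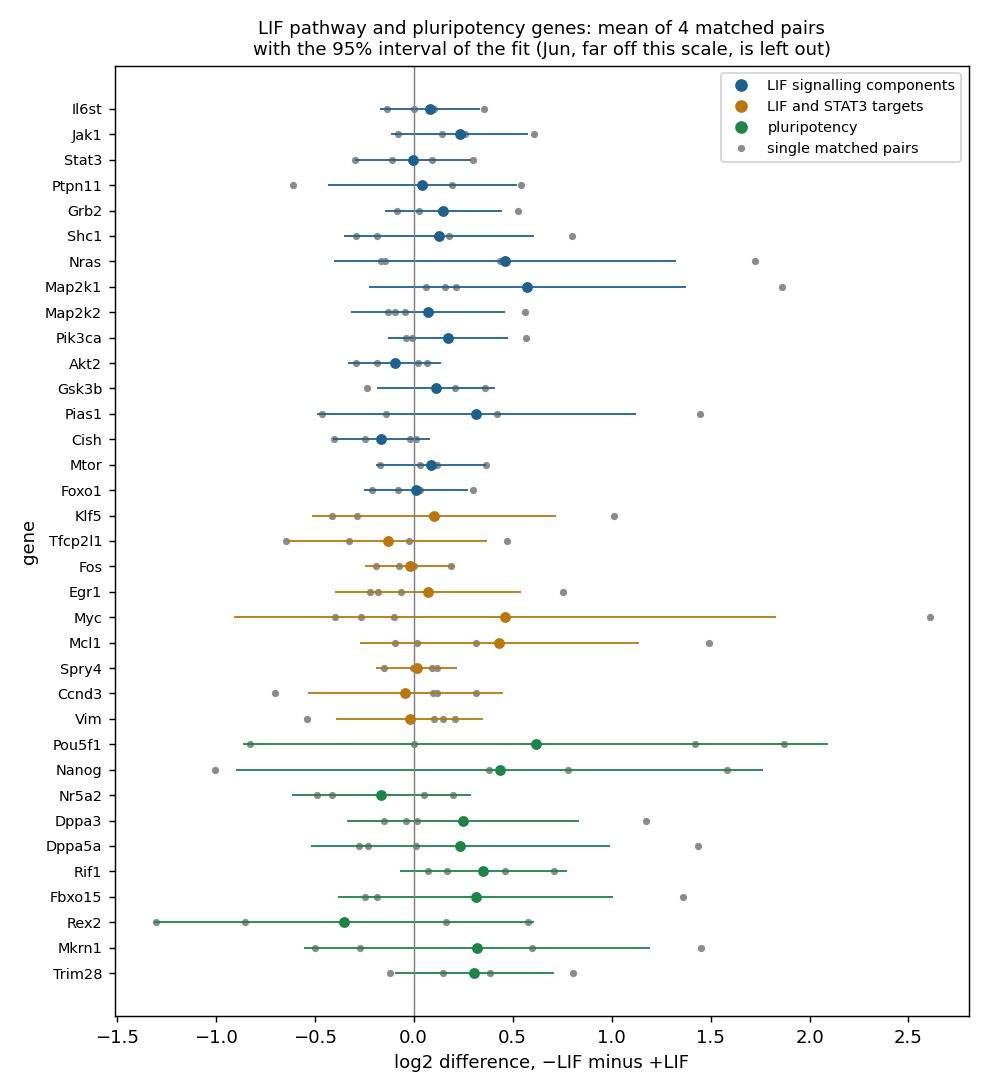
Log2 difference, -LIF minus +LIF (horizontal axis), of the measured LIF signalling components, LIF and STAT3 targets and pluripotency genes, with coloured points for the mean of the 4 matched pairs, bars for the 95% interval of the fit and grey points for single pairs (Jun, off this scale, is left out). All intervals include 0, the narrowest for Spry4 (0.02 ± 0.20), and the grey point farthest right is the Day 2 Cy5 pair of Myc (2.61).

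The pluripotency list, of which 12 of 34 genes were measured, gave no call either. Pou5f1, which encodes Oct4, had -0.40 (Cy3) and -2.68 (Cy5) in D1-LIF EBs, against 0.43 and -2.68 in D1+LIF EBs. At Day 2 it had 1.59 (Cy3) and 0.91 (Cy5) in D2-LIF EBs, against 0.17 and -0.96 in D2+LIF EBs. It was thus higher without LIF in both Day 2 pairs and in neither Day 1 pair by more than 0.01, with a mean difference of 0.62 ± 1.48. Nanog had pair differences of -1.01 and 0.78 at Day 1 and 0.38 and 1.58 at Day 2, so that its Day 1 pairs opposed each other. Both genes rest on 1 clone of slide 1. On slide 2, Rex2, a zinc finger gene of ES cells, had -1.30 and -0.85 at Day 1 and 0.16 and 0.58 at Day 2. Mkrn1, a ubiquitin ligase, had -0.50 and -0.27 at Day 1 and 0.60 and 1.45 at Day 2. Dppa5a, an RNA-binding protein of ES and germ cells, had -0.23 and -0.28 at Day 1 and 0.01 and 1.44 at Day 2. These 3 genes were lower without LIF in both Day 1 pairs and not lower at Day 2. In the list 4 of 12 genes (33.3%) were lower in both Day 1 pairs and higher in both Day 2 pairs, against 14.6% of all genes. Of these 4, 1 kept this order without centring and 1 with quantile normalization. With equal spread or with the Cy3 signs reversed 0 of them did. Rif1, a telomere and replication factor, was the only gene of the list higher in all 4 pairs (0.07 to 0.71, mean 0.35 ± 0.42), but this rested on 1 clone of slide 1 (mean 1.06), and its 3 clones of slide 2 averaged 0.12, with -0.06 in the Day 1 Cy5 pair. The others were Dppa3 (0.25 ± 0.58), Fbxo15 (0.31 ± 0.69), Nr5a2 (-0.16 ± 0.45) and Trim28 (0.31 ± 0.40, and 0.18 on slide 2). The median of the list was -0.21 and -0.07 at Day 1 and 0.11 and 1.09 at Day 2, and with equal spread it was below 0 in all 4 pairs (-0.53 and -0.19, then -0.07 and -0.04). On slide 2 alone, with 10 genes, it was -0.14 and -0.27 at Day 1 and 0.02 and 1.09 at Day 2.

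The genes used as controls also varied between the pairs. Actb had pair differences of -0.56 and -1.80 at Day 1 and 1.00 and 1.35 at Day 2 as the mean of 5 clones of slide 1, which did not agree: in the Day 1 Cy5 pair they ran from -7.20 to 1.90, and 2 of the 5 were above 0. On each of the 4 Cy3 arrays, 12 to 16 clones of slide 1 shared 1 identical value, among them 1 clone each of Actb and Eef1a1, so the Cy3 values of these clones are not separate measurements of their genes. Gapdh had -1.25 and 0.27 at Day 1 and 1.72 and 0.23 at Day 2, and Hprt had -0.37 and 0.17 at Day 1 and 0.77 and 1.19 at Day 2 (-0.20, -0.08, 0.27 and 1.02 for its slide 2 clone). All 3 were higher without LIF in both Day 2 pairs. Gapdh is also on slide 1, in a block whose clones had Day 2 medians of 1.21 (Cy3) and 0.74 (Cy5). The blocks of the Actb clones had Day 2 medians of 1.02 to 1.36 with Cy3 and 0.39 to 3.59 with Cy5. For Hprt the block of the slide 1 clone had 1.26 and 1.35, and that of the slide 2 clone -0.004 and -0.01.

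Lineage markers gave few measured genes and no call. Of the extraembryonic endoderm list, 14 genes had medians of -0.03 and 0.14 at Day 1 and 0.06 and 0.21 at Day 2. Gata4, a defining factor of that lineage, differed by -0.11 ± 0.31, and Serpinh1, a collagen chaperone, was higher in all 4 pairs (0.45 and 0.35 at Day 1, 0.39 and 0.25 at Day 2). Of the primitive ectoderm list, 4 genes were measured, among them Pou3f1 (0.84 ± 1.18), and of the mesendoderm list 1, Mesp2, with -0.06 and -0.58 at Day 1 and 0.60 and 0.60 at Day 2. Of the trophoblast list, 5 genes were measured. Id2, an inhibitor of bHLH factors, was higher in all 4 pairs (0.12 to 0.83, mean 0.36 ± 0.35, unadjusted p = 0.049, adjusted p = 0.82, limma), and 1 of its 2 clones (0.62) is printed in the block described next, while the other gave 0.09. Of the other members Fgfr2, an FGF receptor, was lower in all 4 pairs as a gene mean (-0.12 to -0.004). Its 2 clones differed, 1 with a mean of -0.19 and 1 with a mean of 0.04. The latter was higher in the Day 1 Cy5 (0.10) and Day 2 Cy3 (0.24) pairs. In the list as a whole 3 of the 5 genes were lower in both Day 2 pairs, against 21.3% of all genes. The Day 2 medians of the list were -0.11 and -0.12, and on slide 2 alone, with 4 genes, -0.09 and 0.37. Sgce, an imprinted gene expressed from the paternal copy, was lower without LIF in all 4 pairs. It had -0.24 (Cy3) and -1.83 (Cy5) in D1-LIF EBs, against -0.08 and -0.94 in D1+LIF EBs, and -0.19 and -1.85 in D2-LIF EBs, against -0.05 and -1.37 in D2+LIF EBs. The gene means did not overlap within a dye, and their mean difference was -0.42 ± 0.39 (unadjusted p = 0.038, adjusted p = 0.82, limma). Its 2 clones differed, 1 with a mean of -0.72 that was not lower in the Day 2 Cy3 pair (0.03), and 1 with a mean of -0.11 and differences of -0.001 and -0.05 with Cy5, so the Cy5 difference rested on 1 clone. Sgce and Rps2 also belong to a list of published EB genes. The study picked these genes on these same arrays and then tested them by RT-PCR on sets of EBs, so their array values are not independent evidence. It reports Rplp1, Rpl8, Rps2 and Rps28 as lowered once differentiation begins, which is not the comparison of EBs without and with LIF made here. Of the 15 measured members of this list, 10 were lower in both Day 1 pairs, 13 were higher in both Day 2 pairs and 8 (53.3%) showed both, against 30.8%, 38.6% and 14.6% of all genes. Both held for 3 of 15 (20%) without centring or with equal spread, against 4.42% and 10% of all genes. With the Cy3 signs reversed both held for 0, against 3.03%.

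Among all genes with the same sign in all 4 pairs (345 higher, 7.37%, and 239 lower, 5.11%), the 12 of smallest p in each direction were listed although none passed. Position on the slide moved with the higher ones. Of these 12, 10 (Cdk16, Pdcd5-ps, Zdhhc2, Mypop, Etv6, Sqor, Stoml3, Lrrc56, Tango2 and Thyn1) were printed in 1 block of slide 2, with differences of 0.30 to 0.43. The 160 clones of that block had a median difference of 0.37, with 0.17 and 0.30 in the Day 1 pairs and 0.31 and 0.74 in the Day 2 pairs, and 82 of them were among the 264 clones with an unadjusted p under 0.05. With each block centred on its own median the same 10 genes differed by -0.06 to 0.07. The remaining 2, Slc25a3, the mitochondrial phosphate carrier (0.45), and Serpinh1 (0.36), were printed together in another block, whose Day 1 Cy3 pair had a median of 0.58, and after block centring differed by 0.32 and 0.23. Pkm, the pyruvate kinase of glycolysis, which was higher in all 4 pairs (0.42 and 0.47 at Day 1, 0.42 and 2.28 at Day 2, unadjusted p = 0.042), came from the same block as the 10 genes. The blocks of slide 1, with 4 to 44 clones each, shifted further, with median differences from -0.47 (block 16) to 1.21 (block 27). In blocks 26 to 48 of slide 1 the Day 2 Cy3 median was 0.93 to 1.73. Clones of slide 1 enter the gene means and the list medians.

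**Figure D5:**
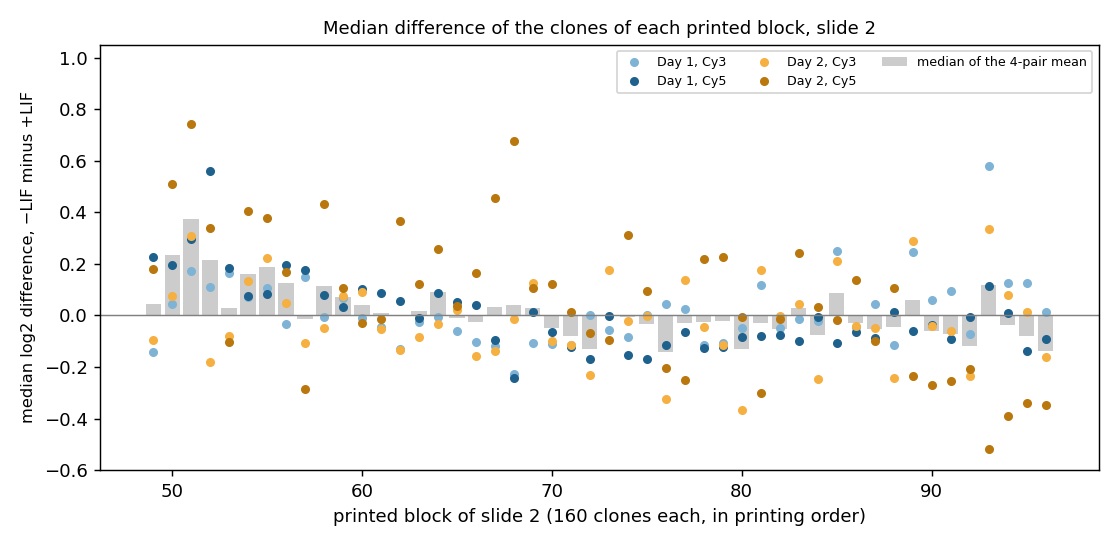
Median log2 difference, -LIF minus +LIF (vertical axis), of the 160 clones of each printed block of slide 2 (horizontal axis, in printing order), with a point for each matched pair and a grey bar for the median of the mean over the 4 pairs. Block 51, the third from the left, has the tallest bar, 0.37, with all 4 pairs above 0.

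The lower genes were printed in 10 blocks. A730082K24Rik, a transcript with no established role, had -0.25 (Cy3) and -4.52 (Cy5) in D1-LIF EBs, against 0.98 and -2.73 in D1+LIF EBs. At Day 2 it had 0.49 (Cy3) and -4.04 (Cy5) in D2-LIF EBs, against 0.87 and -3.65 in D2+LIF EBs. It was the lower of each matched pair, with a mean difference of -0.95 ± 0.71 (unadjusted p = 0.017, adjusted p = 0.82, limma) and -0.99 after block centring. Zfp820, a zinc finger gene, differed by -1.18 and by -1.16 after block centring. Ptgr2, a prostaglandin reductase (-0.59), Sema6d, an axon guidance ligand (-0.77), and Bicd2, a dynein adaptor (-1.46), were on slide 1, and differed by -0.60, -0.68 and -0.91 after block centring. The others, Nav2, Nprl2, Agpat3, Wwc1, Frmd8, Usp25 and Dido1, differed by -0.24 to -0.31, and by -0.12 to -0.28 after block centring. Of the 12 lower genes 7 kept their sign in all 4 pairs after block centring, and of the 12 higher genes 0 did.

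The LIF difference of Days 1 and 2 was also set against that of Days 3 and 4 on the 16 EB arrays, and no clone of 8740 passed (0%, smallest adjusted p 0.65, limma, with 306 clones, or 3.5%, at an unadjusted p under 0.05). The ribosomal protein medians at the later days were -0.26 and 0.18 at Day 3 and 0.21 and 1.74 at Day 4 (Cy3, then Cy5), so that the 2 dyes had opposite signs at Day 3.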

How the data were processed

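Per the labels and the study's methods, the arrays carry the NIA 15K mouse cDNA clones over 2 slides. The authors quantified spots with ImaGene, scaled either channel to its own mean, and deposited a linear ratio of the channels for every spot. The intensities themselves were not analysed here, and the background filter of the authors was therefore not applied. The 18 columns were mapped to samples, and 10 of them (D0 and Days 3 and 4) enter only the comparison with later days and the alternative on 18 arrays. The printed blocks hold 360 spots, of which 20 at each end have no second copy and were left out (3840 spots in all). A spot and its copy 160 spots on were averaged on the log2 scale. Gene symbols came from the platform annotation and were updated by gene ID (19520 spots with 1 symbol matched and 212 did not, RefSeq GRCm38.p6), and 274 clones with several symbols and 5220 with none were not named.

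Ratios were taken to log2 and centred on the median of each array within each slide. Limma (version 3.58.1, R 4.3.3) was fitted to 8 arrays with day, dye and LIF, and, for the difference between the days, with a LIF by day term. P-values were adjusted by Benjamini-Hochberg over all clones, or over all genes as the mean of their clones. The labels number no replicates, so the sample dye served as the block and may take up a difference between biological sets. The fit was tested on simulated data. Named genes are the 12 higher and 12 lower with the same sign in all 4 pairs, filled by smallest p, all measured genes of the LIF signalling, LIF and STAT3 target, pluripotency and control lists, and of other lists up to 3 past the threshold or the one of smallest p, with the extremes of a list as a range. Genes outside this rule are said to be so where they are named, except members given as examples of a list (Eef1g, Eef1a1, Npm1, Pdia3, Hsp90aa1, Cox4i1, Gata4), which were also chosen after their values were seen. The members and the 27 gene lists, 26 of which had a measured gene, were chosen with earlier results of these data known. Promoters came from RefSeq (GRCm38.p6). The list of published EB genes holds those that the study names as changed. Alternatives covered centring, scaling, normalization, blocks, weights, duplicate spots, filters, samples, direction, slides and each array left out, and centring each printed block and giving single genes on slide 2 alone were added after the data were seen.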

Additional observations from a re-analysis of the deposited data

Results flagged for a closer look

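Among gene lists with at least 3 measured genes, the medians of 8 had opposite signs at Day 1 and Day 2 in both pairs of each day, and the difference between the days was not tested for lists, since no list test was run. As Day 2 minus Day 1 the shift was 1.20 for cytosolic ribosomal proteins (Day 1 median -0.34, Day 2 median 0.86), 0.97 for the list of published EB genes (-0.25 and 0.73), 0.78 for p53 targets (-0.26 and 0.53), 0.75 for translation factors (-0.16 and 0.59), 0.63 for pluripotency (-0.13 and 0.50), 0.60 for oxidative phosphorylation (-0.08 and 0.52), 0.16 for hypoxia (-0.08 and 0.08) and -0.30 for trophoblast genes (0.21 and -0.09). The median of all genes was 0.00 at Day 1 and 0.12 at Day 2, so the hypoxia shift is about that of all genes. On slide 2 alone p53 targets had medians of -0.19 and 0.05 at Day 1 and -0.08 and 0.58 at Day 2 (Cy3, then Cy5). Hypoxia genes had -0.05 and -0.18, then -0.16 and 0.32, and trophoblast genes 0.14 and -0.09, then -0.09 and 0.37. These lists thus lost the order on slide 2, and the others of the 8 kept it. For single genes the difference was tested by the LIF by day term, and no clone passed.

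On the 4 arrays without LIF, Frmd8 had 1 value far from the others, with a gap to the nearest of 0.936 of the range. It was -0.28 on the D2-LIF array in Cy3, against -0.03 to -0.01 on the other 3. The limit used for 4 values is one that chance passes in about 1 in 20 groups, and the arrays of the group differ in day and dye.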

How the results depend on the processing

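No clone or gene passed for the effect of LIF over both days under any of the 30 alternatives for clones and 29 for genes, with 11 to 959 clones and 6 to 303 genes at an unadjusted p under 0.05. Leaving out 1 array in turn gave 0 to 0 calls for clones, genes and the difference between the days, with 63 to 492 clones at an unadjusted p under 0.05 for the effect of LIF, against 264 with all arrays (492 without D1-LIF in Cy3, 63 without D1-LIF in Cy5, 149 without D2-LIF in Cy3 and 93 without D2-LIF in Cy5). For the difference between the days the count was 616 with all arrays, 347 and 360 without D1-LIF in Cy5 and in Cy3, 296 and 1184 without D2-LIF in Cy5 and in Cy3, 339 without D1+LIF in Cy5 and 2305 without D2+LIF in Cy3. With each day and dye combination as a replicate block, 0 clones passed and 190 had an unadjusted p under 0.05, and with no dye term 0 passed and 62 did. For the difference between the days, arrays scaled to equal MAD gave 7 clones past the threshold, all on slide 1 (Gapdh, Pmm1, Nhp2 and 4 without a single symbol), against 0 as reported, and the cause was not tested.

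Of 665 values of the 24 named genes under the alternatives, 643 kept their direction and 22, of 16 genes, did not, all with block centring or the Cy3 signs reversed. With the Cy3 signs reversed these were Slc25a3 (-0.076), Serpinh1 (-0.059), Pdcd5-ps (-0.059), Etv6 (-0.010) and Usp25 (0.0055). With each printed block centred they were Cdk16 (-0.024), Sqor (-0.0068), Stoml3 (-0.036) and Tango2 (-0.063). With both they were Cdk16 (-0.040), Pdcd5-ps (-0.18), Zdhhc2 (-0.093), Mypop (-0.036), Etv6 (-0.14), Sqor (-0.021), Stoml3 (-0.011), Lrrc56 (-0.020), Tango2 (-0.095), Thyn1 (-0.054), A730082K24Rik (0.086), Agpat3 (0.030) and Frmd8 (0.033). Values of 4 named genes were lost under some alternatives that tested fewer clones. The median of all genes shifted to -0.61 in the Day 2 Cy5 pair without centring and to -0.43 with each array centred over both slides, against 0.23 as reported, where the ribosomal protein medians were 0.27 and 0.44. Precision is limited by 2 arrays a condition, and signal over background was not used here.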
